A study of Gallus gallus with 50 samples.

Results

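The genes described here encode the chains of the integrins and the laminins, as measured in the small intestine of young broiler chickens. Members were taken by name: every gene whose symbol in the array's annotation has the form of an integrin alpha or beta chain or of a laminin chain, with the ITGB1BP genes left out. The rule found 29 genes among the 13009 genes with a probe set of their own, and 62 probe sets for them. There were 10 integrin alpha chains (ITGA1, ITGA2, ITGA3, ITGA4, ITGA6, ITGA7, ITGA8, ITGA9, ITGA11 and ITGAV) and 6 integrin beta chains (ITGB1 to ITGB6). There were 5 laminin alpha chains (LAMA1 to LAMA5), 4 beta chains (LAMB1 to LAMB4) and 2 gamma chains (LAMC1 and LAMC3). The other 2 genes fit the name and are no chains: ITGB3BP, a protein of the nucleus and the centromere, and ITGBL1, a secreted protein with repeats like those of an integrin beta chain. Each gene is represented by its probe set with the highest mean over all arrays, and 20 genes had more than 1 probe set.

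RNA came from mucosal cells scraped from the jejunum and the ileum of male Cobb 500 broilers on day 10, and was hybridised to the Affymetrix chicken genome array. Birds received 1 of 5 feeds, with 5 birds a feed, and each bird gave both segments, which makes 50 arrays from 25 birds. The LPC low feed held 9.5 g/T of lysophosphatidylcholine (LPC, a phospholipid with a single fatty acid chain), given as 500 g/T of purified LPC with its carrier, and the LPC high feed held 19 g/T, given as 1000 g/T. The lysolecithin low feed supplied the same 9.5 g/T of LPC as 250 g/T of lysolecithin, the mixture from which the LPC was isolated, and the lysolecithin high feed supplied 19 g/T as 500 g/T. The sample titles number the low and high feeds of both products 500 and 1000, which for lysolecithin differs from the amounts given here. The control feed had no supplement. All birds shared the breed, the sex, the age and the room. The labels name 125 chicks in pens of 25, which would make 5 pens, and do not say whether any feed had more than 1 pen, so pen and feed cannot be told apart.

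Integrins are receptors in the cell membrane that pair an alpha with a beta chain and tie the cytoskeleton to the matrix or to other cells. Laminins are cross-shaped proteins built of an alpha, a beta and a gamma chain, and they form the network of the basement membrane on which epithelial cells sit. In the gut, as known mainly from mouse and human, the epithelium holds on to laminin through the integrin of ITGA6 and ITGB4 and through integrins with ITGB1, while leukocytes carry integrins with ITGB2. The roles given below for single chains come from the same species.

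Most arrays fitted their labels. A score of segment marker genes had a median of 2.15 over jejunum arrays and -5.14 over ileum arrays, and 4 arrays lay on the other segment's side. The arrays of 24 of the 25 birds matched best with their own partner. Together 5 arrays of 4 birds were in doubt: the jejunum of control bird 2, both segments of LPC low bird 4, the ileum of LPC low bird 1 and the ileum of lysolecithin high bird 4. The comparisons were also fitted without these arrays, and the main differences that rest on them are given both ways. The mean log2 signal of 7 epithelial markers was between 11.98 and 12.48 in the jejunum and between 12.12 and 12.50 in the ileum, with the brightest signal of the table at 13.99. That of 10 smooth muscle markers was between 4.72 and 7.04 in the jejunum and between 4.61 and 6.58 in the ileum. In scrapings of this kind, fewer cells of a type and less RNA per cell cannot be told apart.

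Members covered much of the range of the array. The signals are log2 values per probe set, and levels of different probe sets cannot be compared. On all 50 arrays 16 members were above the array's median signal, while 8 had a mean below the median of all probe sets: ITGA2, ITGA4, ITGA8, ITGA9, LAMA2, LAMA4, LAMA5 and LAMB4. The spread between jejuna of birds on the same feed differed widely among members. LAMB1 had a residual SD of 1.11, at percentile 99.3 of all probe sets, and LAMB3 and ITGA1 had 0.73 and 0.65, against a median of 0.20 over all probe sets.

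Between the segments of the same birds, 8 of 29 members differed past the threshold, an adjusted p of 0.05 from limma over all 38382 probe sets. Of all probe sets 19.7% passed, 9.92% with a higher and 9.80% with a lower signal in the jejunum. ITGB5, ITGB4 and LAMA4 were higher in the jejunum, and ITGA6, ITGB1, LAMA3, LAMB2 and LAMC1 were lower there than in the ileum. The differences were small, between 0.21 and 0.34 on the log2 scale in either direction. The median difference of the 29 members was -0.0024 and that of all probe sets -0.006. An unadjusted p under 0.05 was reached by 12 members and by 31.9% of all probe sets.

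Among the integrin chains, ITGB5, which pairs with ITGAV to bind vitronectin, had signals of 7.99 (lowest), 8.33 (median) and 8.93 (highest) in 25 jejuna, and 7.42, 8.09 and 8.87 in 25 ilea. It was higher in the jejunum of 21 of 25 birds, by 0.32 ± 0.07 (SE; adjusted p = 0.000923, limma with the bird as a block). ITGB4, the hemidesmosome chain, had 8.49, 9.21 and 9.91 in jejuna and 8.51, 9.02 and 9.32 in ilea, a difference of 0.23 ± 0.07 (adjusted p = 0.0154, limma), and was higher in 19 of 25 birds. The ranges of the segments overlapped for both genes.

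ITGA6, the laminin-binding partner of ITGB4, went the other way. Its signals were 10.25, 10.67 and 10.95 in jejuna and 10.40, 10.83 and 11.15 in ilea (lowest, median, highest). It was lower in the jejunum of 23 of 25 birds, by -0.21 ± 0.04 (adjusted p = 0.000334, limma). ITGB1, the partner of many alpha chains, had 9.67, 10.19 and 10.73 in jejuna and 9.90, 10.37 and 10.93 in ilea, and was lower in 22 of 25 jejuna, by -0.21 ± 0.05 (adjusted p = 0.00279, limma). ITGB4 and ITGA6, which form a receptor together, thus had differences of opposite sign. A further probe set of each of ITGA6 and ITGB1 also passed, with -0.30 (adjusted p = 0.0103) and -0.23 (adjusted p = 0.000728). Of the 3 other ITGB4 probe sets none passed, with 0.26, 0.04 and 0.22.

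Among the laminin chains, LAMC1, the gamma chain of most laminins, had 8.74, 9.19 and 9.81 in jejuna and 8.69, 9.46 and 9.90 in ilea. It was lower in 21 of 25 jejuna, by -0.22 ± 0.05 (adjusted p = 0.00359, limma). A second LAMC1 probe set passed with -0.17 (adjusted p = 0.0263), and the other, dim one gave -0.09. LAMB2, a beta chain of laminins in vessels, muscle and nerve, had 5.52, 5.68 and 6.31 in jejuna and 5.36, 5.94 and 6.54 in ilea, and was lower in 18 of 25 jejuna, by -0.23 ± 0.06 (adjusted p = 0.00788, limma).

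LAMA3, the alpha chain of the laminin that anchors epithelia, had 8.80, 10.02 and 10.71 in jejuna and 9.52, 10.37 and 10.80 in ilea. The difference was -0.34 ± 0.11 (adjusted p = 0.0296, limma), lower in 19 of 25 jejuna. LAMA4, an alpha chain of blood vessels and mesenchyme, had 2.86, 3.36 and 4.93 in jejuna and 2.91, 3.11 and 4.19 in ilea, a difference of 0.26 ± 0.08 (adjusted p = 0.0222, limma), and was higher in 20 of 25 birds. All these ranges overlapped too. The other probe sets of LAMB2 and LAMA4 both gave -0.01, and with the mean over a gene's probe sets neither gene passed (adjusted p = 0.0593 and 0.0612). LAMA2, an alpha chain of muscle basement membranes, did not pass by its brightest probe set (-0.0084), while another one did with -0.15 (adjusted p = 0.0173, limma). LAMA3 lost its call when any 1 of 5 birds was left out: lysolecithin high birds 1 and 2, lysolecithin low bird 3, LPC high bird 3 or control bird 3, with adjusted p between 0.0505 and 0.0553.

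**Figure D1:**
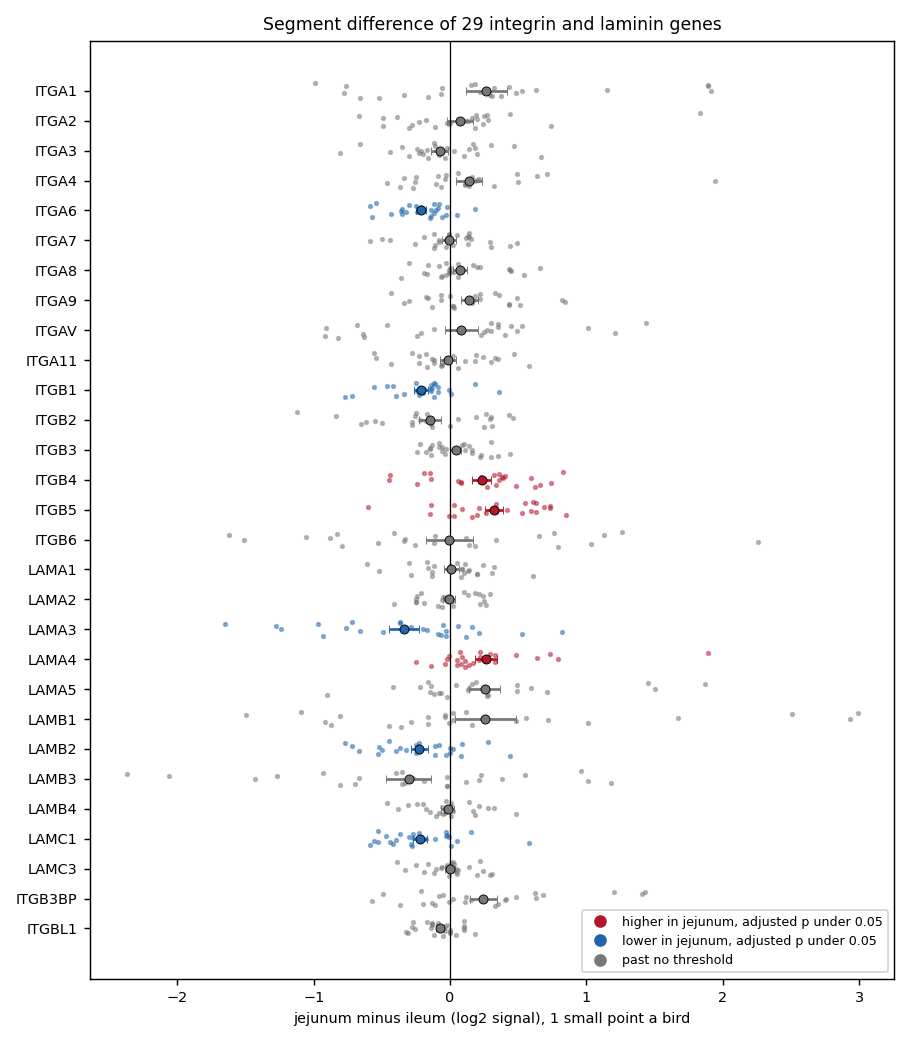
Jejunum minus ileum difference on the log2 scale for the 29 members, with a small point for each of 25 birds and a large point for the mean with its SE; red marks members higher and blue members lower in the jejunum past the threshold, grey the rest. ITGB5 is positive in 21 birds and ITGA6 negative in 23, and LAMB1 and LAMB3 scatter most widely.

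The sign of all 8 differences was the same in each of the 3 batches. The batches are consecutive runs of the running numbers in the sample titles. Each batch held birds of every feed, in uneven numbers. ITGA6 gave -0.18, -0.25 and -0.20 in batches 1, 2 and 3, and ITGB5 gave 0.13, 0.42 and 0.41. Within the 5 feeds, the sign was also the same except for LAMA3, which was 0.082 higher in the jejunum of LPC low birds and lower under the other feeds, most so under lysolecithin high (-0.82). The size varied between feeds. In control birds LAMA4 differed by 0.024 and LAMB2 by -0.03, against 0.64 under lysolecithin high and -0.34 under lysolecithin low. ITGB4 differed by 0.044 under LPC high and 0.474 in control birds. ITGB1 differed by -0.052 under LPC low and -0.448 in control birds. ITGB5 stayed between 0.25 and 0.40, and LAMC1 between -0.31 and -0.18. Without the arrays in doubt, all 8 genes passed again and ITGB3BP joined them with 0.29 ± 0.10 (adjusted p = 0.0408, limma), against 0.24 ± 0.10 (adjusted p = 0.0933) with all birds. That fit left out 4 birds, and its share of all probe sets is not given here.

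Some cell type markers also differed between the segments, where 19.7% of all probe sets passed. Of 10 smooth muscle markers 6 were higher and 1 lower in the jejunum (MYLK by 1.34, MYH11 by 1.07). Of 9 stroma markers 2 were higher and 1 lower. Of 7 endothelial markers 1 was higher (VWF) and of 9 leukocyte markers 1 was higher (CD4), shares below that of all probe sets. Of 7 epithelial markers 3 were lower in the jejunum (ANPEP by -0.34, CDH1 by -0.12, VIL1 by -0.12), and none of 3 thrombocyte and red cell markers passed. The part of these shifts in the differences of the integrin and laminin chains was not tested.

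Partners of the chains are set against the 19.7% of all probe sets that passed between segments. Of 25 measured adaptors and kinases that join integrins to actin, 3 were higher in the jejunum (BCAR1 by 0.32, LIMS2 by 0.33 and FLNA by 0.14) and 2 lower (LIMS1 by -0.42 and FERMT1 by -0.19), a share close to that background. Of 19 matrix ligands of integrins, 5 were higher and 4 lower. Those with the largest moderated statistics were MFGE8 (-0.58), VTN, which encodes vitronectin (-1.31), FBLN1 (-1.86) and SPP1, or osteopontin (-0.43), all lower in the jejunum.

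Of 15 basement membrane partners of laminin, 5 were higher, with COL18A1 (0.54) and the laminin binder NID2 (0.46) leading, and 3 were lower, with the laminin receptor DAG1 (-0.45) and the hemidesmosome collagen COL17A1 (-0.61) leading. Of 8 genes listed as leukocyte ligands and cell surface partners, none was higher and 3 were lower: VCAM1, which binds the integrin of ITGA4 and ITGB1 (-2.50), CD82 (-0.49) and CDH1 (-0.12). CDH1 is also counted among the epithelial markers above. ITGA4 itself did not pass, on a dim probe set with a mean of 2.97 that was above the array median on 1 of 50 arrays. These counts describe the lists and were not tested against other genes.

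In the jejunum no member passed the threshold in any of the 4 comparisons of a supplemented feed with the control. The background was small: 0.00261% of all probe sets passed for LPC low, 0.112% for LPC high, 0.0495% for lysolecithin low and 0.829% for lysolecithin high. At an unadjusted p under 0.05 in limma there were 6 members for LPC low, 3 for LPC high, 5 for lysolecithin low and 5 for lysolecithin high, against 8.56%, 10.9%, 8.92% and 17.8% of all probe sets. The median differences of the members were 0.0022, 0.06, -0.02 and -0.03, and those of all probe sets -0.01, -0.02, 0.00 and -0.02, in the same order of feeds. All comparisons with the control in a segment share the same 5 control birds and are not independent of each other.

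LAMC3, a gamma chain found in few tissues, came nearest. Its log2 signals were 4.77, 5.02, 4.98, 5.19 and 4.94 in LPC low jejuna and 4.90, 4.96, 4.98, 4.86 and 4.92 in LPC high jejuna. They were 5.13, 5.10, 4.93, 4.80 and 4.96 in lysolecithin low jejuna and 4.86, 4.87, 4.61, 4.96 and 4.98 in lysolecithin high jejuna, against 5.17, 5.09, 5.18, 5.24 and 5.14 in control jejuna. All 10 birds of both high feeds lay below all 5 control birds, while the low feeds overlapped with them.

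The LAMC3 difference from control was -0.32 ± 0.08 under lysolecithin high (adjusted p = 0.0729, limma) and -0.25 ± 0.08 under LPC high (adjusted p = 0.222). Under the low feeds it was -0.18 for lysolecithin and -0.19 for LPC. Without the arrays in doubt the lysolecithin high difference was -0.33 (adjusted p = 0.0649). The other LAMC3 probe set gave -0.20 under lysolecithin high and -0.19 under LPC high. Groups that do not overlap were seen in 3.23% of all probe sets for lysolecithin high and 3.67% for LPC high, and 3 members were among them in each comparison.

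ITGAV, the alpha chain of vitronectin and fibronectin receptors, was brighter in most supplemented birds than in controls. It had 7.28, 7.37, 7.30, 7.83 and 7.69 in LPC low jejuna and 7.14, 7.44, 7.32, 7.48 and 7.14 in LPC high jejuna. It had 7.86, 6.41, 7.22, 7.68 and 7.85 under lysolecithin low and 7.05, 6.41, 7.01, 6.96 and 8.60 under lysolecithin high, against 6.25, 6.57, 6.80, 6.18 and 7.09 in control jejuna. Both LPC groups lay above all controls, and both lysolecithin groups overlapped with them. The differences did not pass: 0.81 ± 0.28 for LPC low (adjusted p = 0.404, limma), 0.63 for LPC high and 0.83 for lysolecithin low (adjusted p = 0.335). The brightest LPC low bird, bird 4, is in doubt, and the ITGAV difference for LPC low was 0.83 ± 0.32 with the doubtful arrays left out (adjusted p = 0.488).

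ITGA8, an alpha chain of smooth muscle and mesenchymal cells, had 4.20, 4.08, 4.33, 4.18 and 4.17 in lysolecithin high jejuna, against 3.71, 4.00, 3.91, 4.01 and 3.92 in control jejuna. The groups did not overlap, and the difference was 0.31 (adjusted p = 0.193, limma). A second, dimmer ITGA8 probe set gave 0.03. ITGA7, a laminin receptor chain of muscle, had 5.32, 5.23, 5.31, 5.08 and 5.23 under lysolecithin high, against 5.44, 5.58, 5.52, 5.73 and 5.51 in control jejuna, again with no overlap, a difference of -0.35 that did not pass. ITGA7 in LPC high jejuna (5.17 to 5.41) and LAMB2 in lysolecithin low jejuna (5.52 to 5.63) also lay below their controls (5.44 to 5.73 and 5.71 to 6.03). Groups without overlap were seen in 1.50% of all probe sets for LPC low and 1.61% for lysolecithin low.

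LAMB3, the beta chain that joins LAMA3 in the epithelial laminin, had 6.89, 7.72, 7.79, 8.09 and 7.31 in LPC low jejuna, against 7.06, 6.35, 6.29, 6.60 and 6.40 in control jejuna. Of the LPC low birds 4 were above all controls, and the difference of 1.01 ± 0.44 did not pass (adjusted p = 0.550, limma). LPC low bird 4, the highest, and control bird 2 are in doubt, and without those arrays the LAMB3 difference was 0.84 ± 0.50 (adjusted p = 0.645). The spread of LAMB3 within feeds was among the widest of the members. The mean of 7 epithelial markers was 12.42 ± 0.04 (SD, n = 5) in LPC low jejuna, against 12.22 ± 0.10 in control jejuna, without overlap. Its part in the LAMB3 difference was not tested.

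The remaining leads under lysolecithin high were laminin chains. LAMA5, the main alpha chain of mature basement membranes, had 5.99, 4.98, 6.42, 6.13 and 4.18 in lysolecithin high jejuna, against 4.75, 4.88, 4.17, 4.42 and 4.33 in control jejuna. LAMB1, the beta chain of most laminins, had 7.12, 5.75, 8.06, 7.73 and 4.08, against 5.29, 6.55, 4.75, 5.41 and 4.75 in control jejuna. Birds 1, 3 and 4 of the lysolecithin high group were above all controls in both genes, and bird 2 in LAMA5 alone. Bird 5 was level with the lowest control in LAMA5 (4.18 against 4.17) and below all controls in LAMB1.

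The LAMA5 difference from control was 1.07 ± 0.33 (adjusted p = 0.113, limma), and 1.15 without the arrays in doubt. The LAMB1 difference was 1.25, and 1.53 without those arrays, and it did not pass. LAMB1 had the widest residual SD of the members in the jejunum (1.11). LAMA4 followed the same birds, with 3.96, 3.46, 4.93, 4.26 and 3.21 under lysolecithin high, against 3.36, 3.00, 3.09, 3.37 and 3.42 in control jejuna, a difference of 0.70 ± 0.24 (adjusted p = 0.149). With lysolecithin high bird 5 left out LAMA5 passed (adjusted p = 0.0227), and with bird 2 left out LAMA5 and LAMC3 did. Neither bird has an array in doubt, and shares of all probe sets in these fits are not given here. The other LAMB1 probe set, dimmer, gave 0.10, and the other LAMA4 probe set -0.05.

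The mean of 9 stroma markers moved with these birds. It was between 5.67 and 8.33 in lysolecithin high jejuna (8.33 in bird 3, 8.13 in bird 4, 7.39 in bird 1, 6.49 in bird 2 and 5.67 in bird 5), against 5.54 to 6.46 in control jejuna. The smooth muscle mean was 6.27 ± 0.85 (SD, n = 5) under lysolecithin high and 5.44 ± 0.47 in control jejuna. None of the 9 stroma markers passed the threshold, and 5 were higher at an unadjusted p under 0.05.

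RNA quality also differed between feeds, as read from how far the 5′ end of 3 control transcripts lay below their 3′ end in log2 signal. In the jejunum this index was -0.46 ± 0.10 under LPC high (SD, n = 5) and -0.64 ± 0.29 under lysolecithin high. It was -0.72 ± 0.27 under LPC low and -0.66 ± 0.16 under lysolecithin low, against -0.97 ± 0.14 in control birds. The LPC high jejuna (-0.60 to -0.35) did not overlap with the control jejuna (-1.17 to -0.82). In the ileum the index was -0.56 ± 0.08 under LPC high (-0.63 to -0.44) and -0.55 ± 0.19 under lysolecithin high. It was -0.70 ± 0.30 under LPC low and -0.70 ± 0.14 under lysolecithin low, against -0.80 ± 0.14 in control birds (-1.04 to -0.72). The LPC high and control birds did not overlap there either. With this index as a covariate no member passed in any comparison with the control in either segment. In that fit the jejunal ITGAV difference for LPC high was 0.21 in place of 0.63, while LAMC3 had -0.24 for LPC high and -0.31 for lysolecithin high. For LPC high, whose birds did not overlap with controls in the index, the fit cannot fully tell feed and RNA quality apart.

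**Figure D2:**
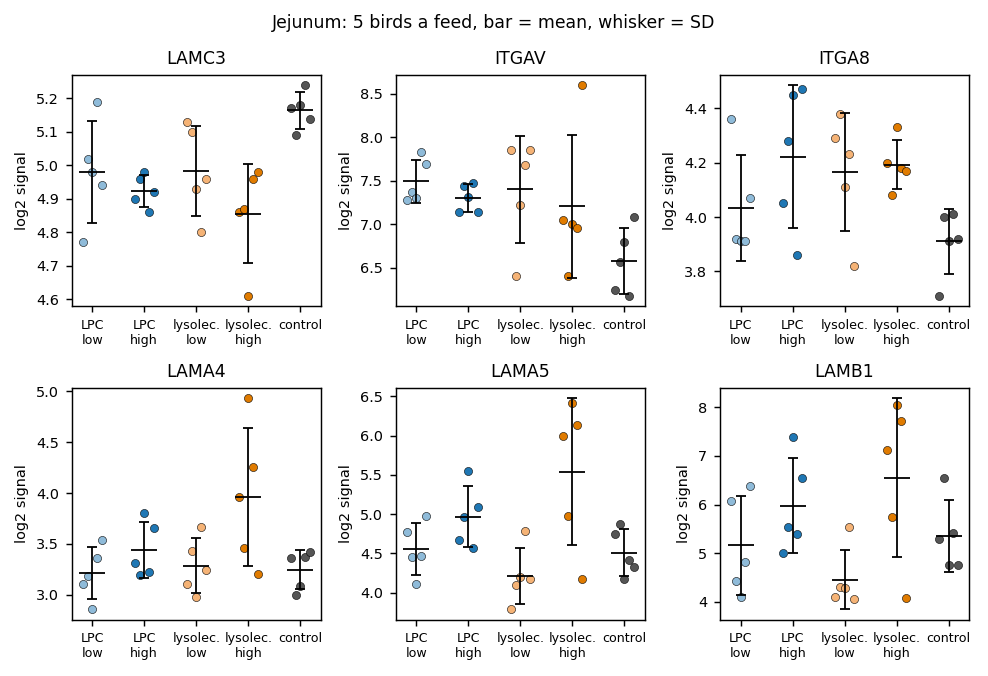
Log2 signal of LAMC3, ITGAV, ITGA8, LAMA4, LAMA5 and LAMB1 in the jejunum, with a point for each of the 5 birds of a feed and bars for the mean and SD. LAMC3 under both high feeds lies below all controls (4.61 to 4.98 against 5.09 to 5.24), and LAMA5 and LAMB1 spread most under lysolecithin high.

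In the ileum no member passed against the control either (limma), and 0.0313% of all probe sets passed for LPC low, 0% for LPC high, 0.875% for lysolecithin low and 0.216% for lysolecithin high. At an unadjusted p under 0.05 there were 3, 7, 6 and 3 members in this order, against 12.1%, 9.97%, 14.2% and 8.96% of all probe sets. The median differences of the members were -0.02, 0.02, 0.01 and -0.001, and those of all probe sets 0.02, 0.01, 0.02 and -0.0005. Groups without overlap were seen in 1.52%, 2.28%, 3.22% and 1.02% of all probe sets. Members without overlap were LAMA3, LAMB3 and ITGA1 for LPC high, and LAMA3, LAMC1 and ITGA1 for lysolecithin low.

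LAMC1 had the smallest p of the members for both low feeds. Its signals were 8.69, 9.51, 9.45, 9.55 and 8.98 in LPC low ilea and 9.32, 9.32, 9.09, 9.36 and 9.11 in lysolecithin low ilea, against 9.72, 9.80, 9.90, 9.66 and 9.46 in control ilea. All lysolecithin low birds were below all controls. The difference was -0.47 ± 0.15 for each of the low feeds, with an adjusted p of 0.196 for LPC and 0.123 for lysolecithin (limma). LPC low birds 1 and 4 and lysolecithin high bird 4 are in doubt here, and with these left out the LAMC1 difference was -0.35 ± 0.14 for LPC low (adjusted p = 0.158) and -0.47 ± 0.12 for lysolecithin low (adjusted p = 0.0506). The second LAMC1 probe set gave -0.38 and -0.35 for these feeds, and the dim one 0.03 and 0.24.

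LAMA3 and LAMB3, which belong to the same epithelial laminin, were both above control in the same groups. LAMA3 had 10.46, 10.69, 10.60, 10.40 and 10.47 in LPC high ilea and 10.46, 10.41, 10.67, 10.42 and 10.64 in lysolecithin low ilea, against 10.20, 9.97, 10.29, 10.09 and 10.23 in control ilea. LAMB3 had 7.64, 7.71, 7.86, 7.87 and 7.21 under LPC high and 8.18, 8.29, 7.93, 7.02 and 7.34 under lysolecithin low, against 7.08, 6.37, 7.10, 6.95 and 7.10 in control ilea. Only LAMB3 under lysolecithin low overlapped with its controls among these 4 sets.

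The LAMA3 differences were 0.41 for LPC high and 0.36 for lysolecithin low, and the LAMB3 difference was 0.83 for both. None passed. Without the arrays in doubt, the lysolecithin low differences were as large, with adjusted p of 0.0874 for LAMA3 and 0.0617 for LAMB3. Under LPC low LAMB3 was 0.32 above control with all birds and 0.91 ± 0.27 with the doubtful ones left out (adjusted p = 0.0505), and under lysolecithin high it was 0.25 and 0.53 in the same 2 fits. With the RNA quality index as a covariate, the LPC high differences were 0.19 for LAMA3 and 0.30 for LAMB3, while those for lysolecithin low were 0.28 and 0.64. The mean of 7 epithelial markers was 12.41 ± 0.06 (SD, n = 5) under LPC high and 12.40 ± 0.07 under lysolecithin low, against 12.20 ± 0.08 in control ilea, and its part in these differences was not tested.

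ITGA1, a collagen and laminin receptor chain of mesenchymal cells and T cells, had 6.18, 6.39, 5.92, 6.31 and 6.02 in LPC high ilea and 5.52, 6.36, 6.07, 6.03 and 6.20 in lysolecithin low ilea, against 8.00, 6.72, 6.81, 6.50 and 6.44 in control ilea. Both groups lay below all controls, and control bird 1 stood far above the rest. The differences were -0.79 (adjusted p = 0.397, limma) and -0.86 (adjusted p = 0.175), and with the RNA quality index as a covariate the LPC high difference was -0.78. The stroma marker mean was also lower there, at 5.88 ± 0.33 under LPC high and 5.90 ± 0.16 under lysolecithin low, against 6.82 ± 0.40 (SD, n = 5 each). Smooth muscle, endothelial and leukocyte means were lower too, at 4.95, 5.15 and 7.16 under LPC high. They were 5.01, 5.10 and 7.13 under lysolecithin low, against 5.44, 5.35 and 7.34 in control ilea. The epithelial mean was higher, as given above. The part of these means in the ITGA1 differences was not tested.

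ITGB4 was 0.31, 0.33, 0.33 and 0.36 above control under LPC low, LPC high, lysolecithin low and lysolecithin high. Its signals were between 8.69 and 9.32 over the 20 supplemented ilea and between 8.51 and 9.02 in control ilea, so the groups overlapped. The LPC low difference was 0.19 (adjusted p = 0.539, limma) and the lysolecithin high difference 0.35 once the doubtful arrays were left out. A second ITGB4 probe set gave 0.57, 0.85, 0.42 and 0.60 for the same feeds, with adjusted p of 0.139, 0.133, 0.202 and 0.16 (limma), and the other 2 probe sets gave between -0.07 and 0.19. Because the feeds share their controls, these are not 4 separate observations.

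ITGB3BP, which is no integrin chain, had 4.56, 4.56, 4.76, 5.02 and 4.63 in LPC high ilea, against 5.14, 6.24, 5.09, 5.50 and 5.02 in control ilea. The groups met at a single value, and the difference was -0.70 ± 0.20 (adjusted p = 0.281, limma). ITGB6, an epithelial partner of ITGAV, depended on the arrays in doubt: it had 5.15, 6.64, 6.30, 5.11 and 6.70 in LPC low ilea, against 5.88, 5.81, 5.60, 5.70 and 6.58 in control ilea. Birds 1 and 4, the low ones, are those in doubt. The difference was 0.11 with all birds and 0.80 ± 0.23 without the arrays in doubt, where it passed (adjusted p = 0.0499, limma). That fit kept only LPC low birds 2, 3 and 5, and its share of all probe sets is not given here.

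**Figure D3:**
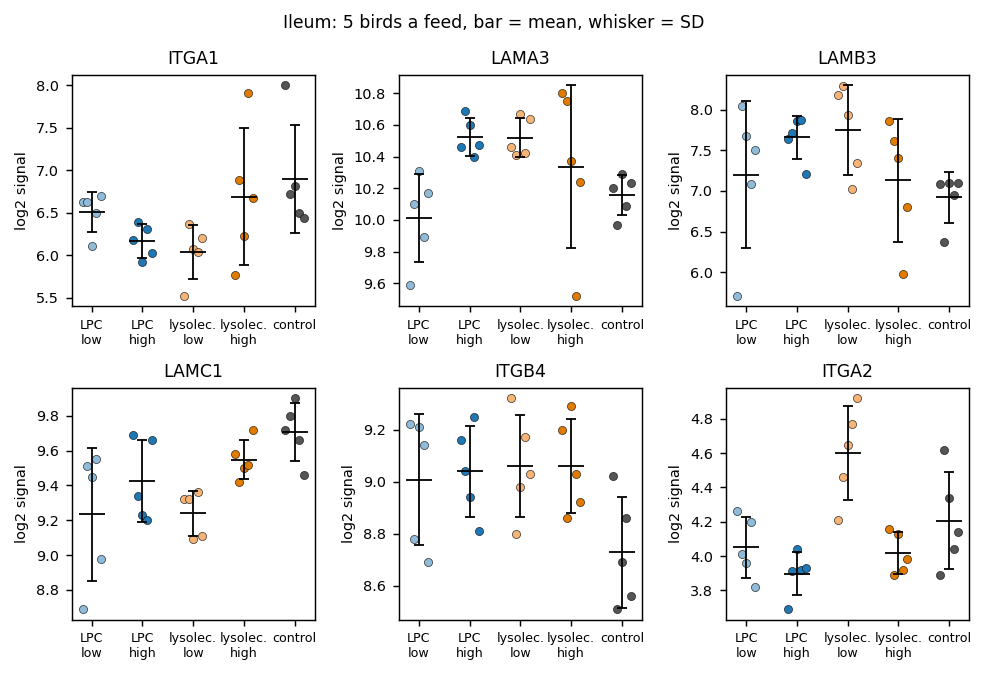
Log2 signal of ITGA1, LAMA3, LAMB3, LAMC1, ITGB4 and ITGA2 in the ileum, with a point for each of the 5 birds of a feed and bars for the mean and SD. LAMA3 lies at 10.40 or above under LPC high and lysolecithin low and at 10.29 or below in controls.

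Among the genes around the chains, 2 passed a comparison with control, both in the ileum under lysolecithin low. In that comparison 0.875% of all probe sets passed. AGRN, a laminin-binding proteoglycan, rose by 0.82 (adjusted p = 0.0362, limma), the only one called of 15 basement membrane partners. POSTN, a matrix ligand of integrins with ITGAV, fell by 0.57 (adjusted p = 0.0292, limma), the only one called of 19 matrix ligands. None of the 25 adaptors and 8 leukocyte ligands and cell surface partners passed in any feed comparison.

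**Figure D4:**
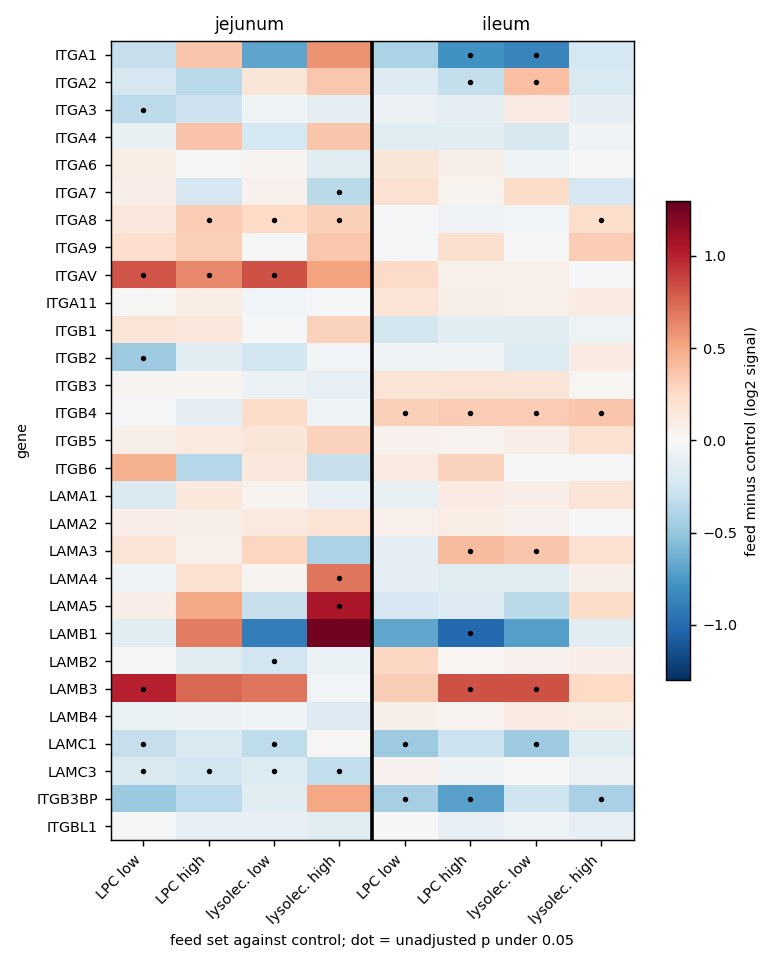
Difference from control on the log2 scale (colour) for the 29 members under the 4 supplemented feeds in the jejunum and the ileum, with a dot where the unadjusted p is under 0.05. No cell passed the adjusted threshold, and dots number 6, 3, 5 and 5 in the jejunum and 3, 7, 6 and 3 in the ileum for LPC low, LPC high, lysolecithin low and lysolecithin high.

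Lysolecithin and purified LPC were compared at matched levels of LPC, and the high with the low level of each product, which gave 4 comparisons a segment. Lysolecithin is the unfractionated mixture and purified LPC the lysophosphatidylcholine isolated from it. No member passed in any of the 8 comparisons (limma, adjusted over all probe sets).

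For lysolecithin low against LPC low in the ileum, 0.0365% of all probe sets passed, and ITGA2, a collagen receptor chain, came nearest of the members. It had 4.21, 4.46, 4.65, 4.77 and 4.92 in lysolecithin low ilea, against 4.26, 4.01, 3.96, 4.20 and 3.82 in LPC low ilea. Of the lysolecithin low birds 4 were above all LPC low birds. The difference was 0.56 ± 0.14 (adjusted p = 0.0904, limma), and without the arrays in doubt it was 0.72 ± 0.16 and passed (adjusted p = 0.0239). The fit without those arrays kept only LPC low birds 2, 3 and 5, and its share of all probe sets is not given here. LAMA3 was 0.49 higher without overlap, a separation seen in either direction in 1.40% of all probe sets, and did not pass. The lowest LPC low values of LAMA3, 9.59 and 9.89, come from birds 1 and 4, which are in doubt, and with these left out the difference was 0.33 ± 0.13 (adjusted p = 0.193).

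The other product comparisons passed 0% of all probe sets. At an unadjusted p under 0.05 there were 3 members for lysolecithin low against LPC low in the ileum (12.6% of all probe sets), 1 there for the high level (3.48%), and 1 and 3 in the jejunum for the low and high level (5.21% and 6.11%). In the jejunum at the high level these were ITGB3BP, ITGA2 and LAMA4, at 0.84, 0.71 and 0.50 above LPC high, with a smallest adjusted p of 0.797. No member was free of overlap in these 3 comparisons, against 0.651% and 0.834% of all probe sets in the jejunum and 0.641% in the ileum.

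For lysolecithin high against low, 0.00261% of all probe sets passed in the jejunum and 0.00521% in the ileum. In the jejunum LAMA5 was 1.37 ± 0.33 higher, ITGA1 1.28 ± 0.39 higher and LAMB1 2.15 ± 0.66 higher under the high level, with adjusted p of 0.223, 0.223 and 0.224 (limma). Against control jejuna, LAMB1 was higher under the high level (1.25) and lower under the low level (-0.89). Signals of LAMB1 under lysolecithin low were 4.10, 4.30, 4.29, 5.53 and 4.06, so bird 5 of the high level (4.08) lay among them. With that bird left out ITGA1, LAMA5 and LAMB1 all passed. Its arrays are not among those in doubt, and the share of all probe sets in that fit is not given here. The stroma marker mean was 7.20 ± 1.12 under the high level and 5.60 ± 0.53 under the low level (SD, n = 5 each). In control jejuna it lay between these, at 6.17 ± 0.39 (SD, n = 5).

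In the ileum ITGA2 had 4.16, 3.89, 4.13, 3.92 and 3.98 under lysolecithin high, all below the lysolecithin low birds, a difference of -0.60 ± 0.14 (adjusted p = 0.109, limma), and LAMC1 was 0.31 higher without overlap. Groups without overlap were seen in 1.74% of all probe sets there and in 1.17% in the jejunum, where no member was among them. At an unadjusted p under 0.05 there were 8 members in the jejunum and 5 in the ileum, against 13.5% and 9.73% of all probe sets.

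For LPC high against low 0% of all probe sets passed in either segment, and LAMA3 came nearest with 0.54 in the ileum (adjusted p = 0.277, limma), without overlap. Leaving out the doubtful arrays gave 0.35 ± 0.13 for LAMA3 (adjusted p = 0.178). Members with an unadjusted p under 0.05 numbered 2 in the jejunum and 1 in the ileum, against 5.96% and 10.4%, and groups without overlap made up 0.802% and 1.97% of all probe sets.

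The 95% intervals show how precisely the differences in these 8 comparisons were measured. Each interval is for a single member without adjustment, so a difference larger than its half-width could still fail the threshold. The median half-width over the members was 0.35 in the jejunum and 0.32 in the ileum. In the jejunum the whole interval was within a difference of 1 in either direction for 24 and 22 members between products at the low and high level, and for 23 and 20 between levels of LPC and of lysolecithin. In the ileum the same counts were 27, 25, 26 and 25 of 29. LAMB1 had the widest interval, with a half-width of 1.38 in the jejunum and 0.93 in the ileum.

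A test of any feed effect passed no member in the jejunum (smallest adjusted p = 0.188, LAMA5) or the ileum (0.0731, ITGA2), where 0.13% and 0.138% of all probe sets passed. At an unadjusted p under 0.05 there were 8 and 5 members, against 13.8% and 14.6%. Whether feed effects differed between the segments was tested on the difference between the 2 arrays of a bird. No member passed, 0.00521% of all probe sets did, and 3 members had an unadjusted p under 0.05 against 10.3%. In contrasts of single feeds from the same fit, ITGB3BP led under lysolecithin high, with 0.93 ± 0.27 between the segments' effects (adjusted p = 0.333, limma). LAMB1 led under LPC high, with 1.69 ± 0.60 (adjusted p = 0.651). An unadjusted p under 0.05 was reached there by 6 and 4 members, against 4283 and 2877 of 38382 probe sets. In both contrasts 0 probe sets passed the threshold.

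Since marker means moved with some members, each mean was entered as a covariate beside feed and batch, a choice made after seeing the data. In the jejunum, ITGA1, ITGA4, ITGA9, LAMA4, LAMA5 and LAMB1 passed with positive slopes on the stroma mean (6 of 29 members, 3.34% of all probe sets in either direction) and on the smooth muscle mean (2.16%). LAMB1 was higher by 1.28 ± 0.11 for each log2 unit of the stroma mean (adjusted p = 2.72e-07, limma). Its slopes within batches 1, 2 and 3, fitted without feed, were 1.20, 1.32 and 1.18 and so also hold differences between feeds. The same genes except ITGA4 passed with the endothelial mean (2.20%). All slopes that passed were positive. ITGA4 lost both calls without the 2 arrays farthest from the median (adjusted p = 0.189 for stroma and 0.191 for smooth muscle) and without the arrays in doubt (0.0536 and 0.0514), with slopes on stroma of 0.37 and 0.39 against 0.39 over all arrays. LAMA4 lost its stroma call without the 2 farthest arrays (adjusted p = 0.094, slope 0.26 against 0.36). The other calls of these 3 marker means held in both fits. Without the 2 farthest arrays 1.56% of all probe sets passed for stroma, 1.47% for smooth muscle and 1.21% for endothelium. Without the arrays in doubt 3.35%, 3.08% and 2.77% did.

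With the leukocyte mean, ITGA1, ITGA4, ITGA9 and ITGB2, the common beta chain of leukocyte integrins, passed (0.498%). ITGB2 gained 1.00 ± 0.22 per log2 unit (adjusted p = 0.0382, limma). Without the 2 arrays farthest from the median, no member passed for leukocytes, and 0.12% of all probe sets did. The slopes were of like size: 1.92 against 1.85 over all arrays for ITGA1, 1.45 against 1.29 for ITGA4, 1.19 against 1.31 for ITGA9 and 1.02 against 1.00 for ITGB2. LAMB3 alone passed with the epithelial mean (0.245%), by 6.39 ± 1.04 per log2 unit (adjusted p = 0.00986, limma), where that mean varied with an SD of only 0.117.

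In the ileum, 4 members passed with the smooth muscle mean (ITGA1, ITGA9, LAMA5 and LAMB1; 0.722%), 2 with stroma (ITGA1 and LAMA5; 0.599%), 1 with endothelium (ITGA9; 1.20%) and 2 with leukocytes (ITGA1 and ITGB2; 0.623%). With the epithelial mean no member passed (limma; 0% of all probe sets), and 0 had an unadjusted p under 0.05, against 6.15% of all probe sets. Without the 2 farthest arrays, or without the arrays in doubt, the ileal counts were 0 for each of these marker means, except that ITGB2 passed for leukocytes without the 2 farthest arrays. Shares of all probe sets fell too, to 0.162% and 0.268% in these fits for smooth muscle and 0.156% and 0.237% for stroma. They were 0.0287% and 0.00261% for endothelium and 0.169% and 0% for leukocytes. The ileal slopes stayed positive, and that of ITGA1 on smooth muscle was 0.48 without the 2 farthest arrays and 0.73 without those in doubt, against 0.85 over all.

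**Figure D5:**
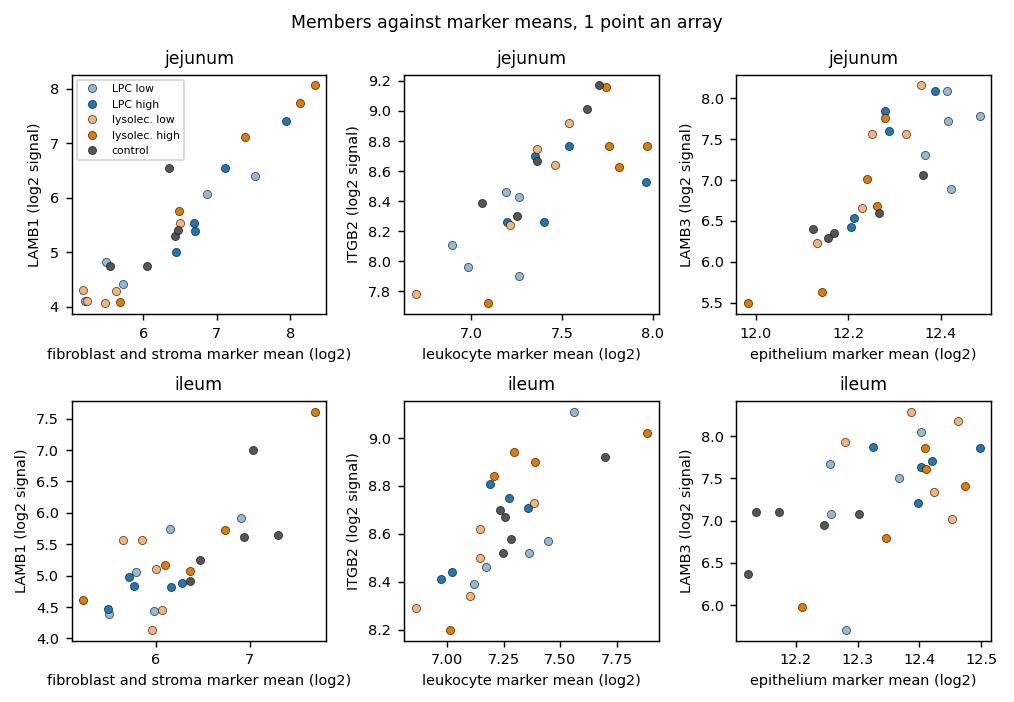
Log2 signal of LAMB1 against the stroma marker mean, ITGB2 against the leukocyte marker mean and LAMB3 against the epithelial marker mean, with a point for each array, jejunum above and ileum below, coloured by feed. LAMB1 in the jejunum follows the stroma mean most closely, from 4.06 to 8.06.

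Some members varied together from bird to bird after feed and batch were taken out, described here over 25 arrays a segment and 406 pairs with no test. In the jejunum LAMA5 and LAMB1, chains of the same laminin, had r = 0.94 (rho = 0.94). Raw signals within batches 1, 2 and 3, with feed left in, gave 0.91, 0.96 and 0.96. ITGA1 and ITGA9 had r = 0.89, with 0.57, 0.82 and 0.90 in raw signals within the same batches. LAMA4 and LAMA5 had r = 0.85, with 0.63, 0.96 and 0.96. The epithelial chains ITGB6 and LAMB3 had r = 0.82 in the jejunum and 0.77 in the ileum. ITGAV and ITGB2 had r = -0.72 in the jejunum. The other pairs were weaker in the ileum. There r was 0.54 for LAMA5 and LAMB1, 0.47 for ITGA1 and ITGA9 and 0.59 for LAMA4 and LAMA5. For ITGAV and ITGB2 it was -0.30. The points share the arrays' cell makeup and RNA quality.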

How the data were processed

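RNA of 50 mucosal samples (25 birds, 2 segments) was hybridised to 1-colour Affymetrix arrays. The table the authors deposited gives a log2 signal for each probe set, made with RMA per the submitters' processing notes, which also name limma. Versions are not given in the sources used here. RMA equalises the distributions of the arrays (medians 4.57 to 4.70), so differences are relative to the bulk of the array. RNA had an integrity number above a minimum and some tissue was extracted again, per the labels' protocols. The number of arrays limits the precision.

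Of 38535 probe sets, 153 controls were left out and 38382 tested dim ones included. In the platform annotation 27168 of them had 1 symbol, and all 29 member IDs had the same symbol in a current chicken gene table. No sequences or coordinates were used here.

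Each segment's 25 arrays were fitted with limma 3.58.1 (R 4.3.3, statmod 1.5.0) on feed and batch, and jejunum against ileum was fitted with a block for each bird. Both arrays of a bird carry its number in the labels, and their consensus correlation was 0.164. Benjamini-Hochberg adjustment ran over all probe sets, with 0.05 as the threshold. The procedure was tested on simulated data. Values are named for members past the threshold, or the 3 leading by moderated t where fewer passed. Further members whose groups did not overlap, or that lead other comparisons, were named after their values were seen, as were the per-bird values of some members. Partner genes are named up to 4 a list. The members, lists and alternatives were chosen with earlier results of these data known. Alternatives were a fit without batch or with random batches, bright probe sets alone, array weights, a robust prior with a trend, median centring, the RNA quality index as a covariate, leaving out arrays in doubt or single birds, and other probe set rules. Birds are separate animals within a feed, which may have shared a pen.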

Additional observations from a re-analysis of the deposited data

Results flagged for a closer look

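In 22 of 290 sets of 5 birds (29 members, 5 feeds and 2 segments), 1 bird stood apart from the other birds of its feed: its gap to the nearest bird, as a share of the whole range, was above 0.71. Chance flags about 1 in 20 such groups. In 18 of them the bird was the highest and in 4 the lowest, and 5 rest on arrays in doubt.

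In the jejunum the gap shares were 0.848 for ITGA2 (lysolecithin high bird 5, 5.81), 0.865 for ITGA4 (LPC high bird 3, 4.73), 0.775 for ITGA7 (lysolecithin low bird 4, 6.34) and 0.837 for LAMB1 in the same bird (5.53). For ITGB6 they were 0.802 (LPC low bird 4, 7.37, in doubt) and 0.77 (lysolecithin high bird 5, 6.87), and for LAMC1 0.828 (LPC low bird 1, 9.27).

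In the ileum ITGA1 stood out in control bird 1 (0.763, at 8.00), and ITGA3, ITGB6 and ITGBL1 in control bird 5 (0.722, 0.714 and 0.738). ITGA3 and ITGB2 did so in LPC low birds in doubt (0.714 in bird 4 and 0.75 in bird 1). ITGA4 did in lysolecithin low bird 2 (0.792) and lysolecithin high bird 4, in doubt (0.744). LAMA2 stood out in lysolecithin low bird 4 (0.786), and LAMA4 in LPC low bird 5 (0.78) and lysolecithin high bird 4, in doubt (0.8). The low ones were ITGB1 in LPC low bird 5 (0.853), ITGB2 in lysolecithin high bird 1 (0.78), ITGB6 in LPC high bird 3 (0.787) and LAMB3 in control bird 2 (0.795).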

How the results depend on the processing

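The count of 0 called members in feed comparisons changed in few settings. Shares of all probe sets are not given here for these settings, nor for fits without single birds or within batches and feeds. Whether the whole array changed along with the members cannot be read from these counts. With array weights 1 member passed in each of 4 tests: LAMC3 for LPC high against control in the jejunum, and ITGA2 in the ileum for any feed, lysolecithin low against LPC low, and lysolecithin high against low. Without the arrays in doubt 1 passed for any feed in the ileum and for lysolecithin low against LPC low (ITGA2 in both) and 1 for LPC low against control (ITGB6). In 1 fit of both segments with the bird as a random replicate block, 2 passed in the jejunum for lysolecithin high against control (LAMA5 and LAMC3), 1 for lysolecithin high against low and 1 for any feed (LAMA5). The block changed no other count. Between segments the count was 8 with no replicate block.

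With single birds left out, the count ranged from 0 to 1 for any feed in the jejunum (1 without lysolecithin high bird 5), 0 to 2 for lysolecithin high against control, 0 to 3 for lysolecithin high against low in the jejunum, 0 to 1 for any feed in the ileum (1 without LPC low bird 1) and 0 to 1 for lysolecithin low against LPC low there (1 without lysolecithin low bird 2). It ranged from 7 to 9 between segments.

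Between segments 0 members passed within batches 1 and 3 and within each of the 5 feeds, and 2 within batch 2 (ITGA6 and ITGB5), in fits of fewer birds. LAMA3 turned to 0.082 in LPC low birds (adjusted p = 0.970). For the marker means, counts became 0 in the ileum for smooth muscle, stroma and endothelium without the 2 farthest arrays and without the arrays in doubt. For leukocytes they became 0 in the jejunum and 1 in the ileum without the 2 farthest, and 0 in the ileum without those in doubt. The shares of all probe sets that passed fell in these marker fits too. The causes were not tested. With 5 birds a feed, differences of widely varying members could go uncalled even when large. LAMB1 was 2.15 higher under lysolecithin high than low in the jejunum and did not pass.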
